A study of Mus musculus with 8 samples.

Results

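The interferon response and antigen presentation genes were described in livers of WT mice and of mice lacking NgBR in the liver (N-LKO), all on chow diet (CD). They are 42 genes chosen by gene symbol: interferon-stimulated genes, STAT and IRF factors, MHC class I and II chains and the genes that load peptides onto class I. All 42 were among the 19642 genes of the deposited table, and 41 were tested. Ciita, the transactivator of MHC class II genes, did not pass the filter on low counts and is given by its level only.

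RNA from the livers of 4 WT and 4 N-LKO mice was depleted of rRNA and sequenced, 1 library per mouse, and the authors deposited an estimated count for each gene in each mouse. N-LKO mice carry loxP sites in Nus1, the gene that encodes NgBR, and a Cre recombinase under the albumin promoter, which is active in hepatocytes. Both groups are on the C57BL6 background, and the labels name the control animals only as WT. Sample titles, the series' design text and a figure legend put the time on CD at 8 weeks, whereas treatment entries put it at 16 weeks. The labels give neither sex nor age, and livers are numbered as in the titles, which call them biological replicates.

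Interferons bind receptors at the cell surface whose JAK kinases activate STAT proteins. A complex of STAT proteins with IRF9 binds interferon-stimulated response elements (ISRE), and STAT dimers bind gamma-activated sites (GAS). The genes they switch on encode antiviral effectors, GTPases that act on intracellular pathogens, RNA sensors, the immunoproteasome and the peptide transporter of MHC class I, and hepatocytes and Kupffer cells of the liver both respond to interferon.

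Nus1 was at 82.0, 90.4, 90.5 and 89.7 CPM in WT 1 to 4 and at 33.3, 36.2, 38.7 and 38.7 CPM in N-LKO 1 to 4, so each N-LKO liver held less Nus1 mRNA than each WT liver, with a log2 fold change (N-LKO minus WT) of -1.26, an SE (standard error) of 0.0748 and an adjusted p = 3.06e-05. Total counts ranged from 14688404 to 18585412 per mouse. Of 10 hepatocyte markers, 0 had an adjusted p under 0.05, and their summed level was 87784 to 117604 CPM in WT livers and 91535 to 108726 CPM in N-LKO livers. Alb was the largest part of this sum, with means of 58820 CPM in WT and 56185 CPM in N-LKO livers. By log2 fold change 5 of the 10 were below 0. Lower without overlap was 1 of 10, beside 3.32% of all genes. This was Apoa2, named after its values were seen (log2 fold change -0.36, adjusted p = 0.162, edgeR). Over the 14214 genes tested with edgeR's quasi-likelihood test and Benjamini-Hochberg adjustment, 148 (1.04%) were called at an adjusted p under 0.05, of which 117 were higher and 31 lower in N-LKO livers, and the median log2 fold change was -0.0033. Levels are given in CPM, the count of a gene relative to the size of its library after edgeR's TMM scaling. In whole-liver RNA, fewer cells of a type and less RNA per cell cannot be told apart.

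Of the 28 interferon genes, 25 had a log2 fold change below 0, while the log2 fold changes of the class I chains lay near 0 and those of the class II chains above 0. Of the 41 genes tested, 2 were called, Ifit1 and Usp18, beside 1.04% of all genes, and both fell, beside 0.218% of all genes called lower. Called higher were 0 of 41, beside 0.823% of all genes, and 0 had an unadjusted p under 0.05 with a higher level. An unadjusted p under 0.05 with a lower level was found for 23 of 41 genes, beside 5.90% of all genes. In 12 of 41 genes every N-LKO liver was below every WT liver, beside 3.32% of all genes, and in 0 of 41 each was above, beside 4.20%. A log2 fold change below 0 was found for 34 of 41 genes, beside 50.7% of all genes, and the median was -0.30. None of the 41 genes reached a log2 fold change of -1 or 1, and the lowest N-LKO mean was 50.7% of the WT mean, for Ifit1. DESeq2 called 6 of the genes, adding Ifit3, Irf9, Rsad2 and Tap1, beside 371 of all genes where edgeR called 148. By limma-voom 1 was called, Ifit1. With 1 mouse left out edgeR called 1 to 5, beside 71 to 173 of all genes. It called 5 without WT 1 and 1 without WT 2, WT 3, N-LKO 1, N-LKO 3 or N-LKO 4. The plot of fold changes by role shows these values with their intervals.

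**Figure D1:**
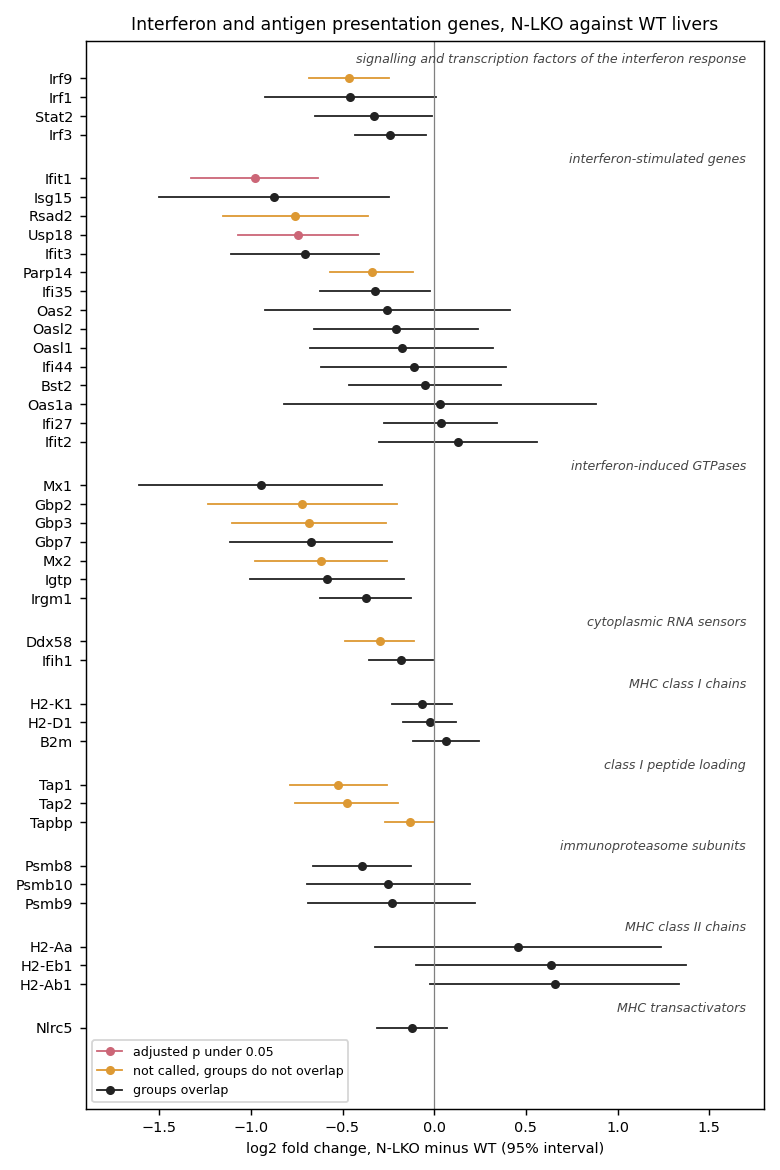
Log2 fold change (N-LKO minus WT, x axis) of each of the 41 genes tested, grouped by role, with 95% intervals from the edgeR fit of 4 WT and 4 N-LKO livers. Ifit1 and Usp18 are the 2 genes called (red), 10 further genes whose groups do not overlap are in orange, and the class II chains are the only role with every point above 0.

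The 42 genes differ widely in level. Per kilobase of exon, B2m was the most abundant in WT livers at 1428 ± 61.5 CPM per kb, followed by H2-K1 at 215 ± 7.96 CPM per kb and H2-D1 at 106 ± 3.63 CPM per kb (SD, n = 4). These are the light chain and the classical heavy chains of MHC class I. Bst2 (tetherin) and Ifi27 came next, at 17.5 and 17.0 CPM per kb, and did not differ beyond their spread. At the other end, Ciita was at 0.0531 CPM per kb, Oas2 at 0.259 CPM per kb and Mx1 at 0.320 CPM per kb. Genes at such low levels rest on few counts: Mx1 had 8 to 28 counts per liver and Ciita 5 to 20.

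Among the signalling factors, Irf9, the DNA-binding subunit of the complex that reads ISRE, was lower in each N-LKO liver. It was at 24.8, 30.0, 31.6 and 33.5 CPM in WT 1 to 4 and at 20.3, 21.5, 22.03 and 23.02 CPM in N-LKO 1 to 4. The N-LKO livers lay close together and below the lowest WT liver, WT 1. The log2 fold change was -0.47 (SE 0.0992, adjusted p = 0.0580), short of the threshold. Stat2, its partner, was at 35.5, 36.7, 53.4 and 46.0 CPM in WT 1 to 4 and at 27.5, 33.6, 37.3 and 38.1 CPM in N-LKO 1 to 4. WT 3 and WT 4 were above every N-LKO liver, WT 1 and WT 2 lay among them, and the log2 fold change was -0.33 (adjusted p = 0.377). Irf3, the factor that RNA sensors activate to induce interferon, was at 24.1, 26.6, 26.2 and 28.1 CPM in WT 1 to 4 and at 20.6, 21.1, 22.4 and 24.9 CPM in N-LKO 1 to 4. Its groups overlapped through WT 1 and N-LKO 4 (log2 fold change -0.24, adjusted p = 0.267). Irf1, a factor induced by interferon gamma, was at 12.9, 7.82, 14.96 and 13.5 CPM in WT 1 to 4 and at 9.81, 6.01, 10.4 and 9.57 CPM in N-LKO 1 to 4. WT 2 and N-LKO 2 were each the lowest of their group (log2 fold change -0.46, adjusted p = 0.398). All 4 factors had a log2 fold change below 0, with a median of -0.39.

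Ifit1, which binds viral RNA that lacks the host's cap methylation, carried the largest change of the 41 genes. This protein-coding gene spans 34640871 to 34650009 of chromosome 19 (plus strand, GRCm38, GENCODE M21). Its level was 13.7, 15.6, 21.7 and 14.7 CPM in WT 1 to 4 and 7.26, 8.71, 9.69 and 7.60 CPM in N-LKO 1 to 4. Every N-LKO liver was below every WT liver, and WT 3 was the highest of all. The mean was 16.4 ± 3.60 CPM in WT livers and 8.32 ± 1.11 CPM in N-LKO livers (SD, n = 4). Its level fell by 0.98 on the log2 scale (SE 0.157, 95% interval -1.33 to -0.63, adjusted p = 0.0154, edgeR), and permuting the mice in an exact two-sided test gave p = 0.0286, the smallest that 4 mice against 4 allow. Ifit1 was called in each of the 8 fits that left out 1 mouse, with log2 fold changes from -1.06 to -0.82, and a block by library number ended the call (adjusted p = 0.0552, edgeR). Usp18, the protease that removes ISG15 from proteins and restrains the type I interferon receptor, spans 121245906 to 121270917 of chromosome 6 (plus strand). Its level was 9.67, 13.5, 13.8 and 9.33 CPM in WT 1 to 4 and 6.75, 6.73, 7.43 and 6.65 CPM in N-LKO 1 to 4. The N-LKO livers spanned less than 1 CPM, and WT 2 and WT 3 stood above WT 1 and WT 4. It fell by 0.74 on the log2 scale (SE 0.148, 95% interval -1.07 to -0.42, adjusted p = 0.0429, edgeR). Usp18 kept its direction when each mouse was left out, with log2 fold changes from -0.83 to -0.65, but was called in 2 of those 8 fits and lost its call without WT 2, WT 3 or any single N-LKO mouse (adjusted p up to 0.108). A minimum of 10 counts in every mouse (adjusted p = 0.0528, edgeR) and limma-voom (adjusted p = 0.0774) also ended the call, as did a block by title number (adjusted p = 0.0569, edgeR) or by library number (adjusted p = 0.0850, edgeR). Usp18 also shares 124 exon bases with Gm44148 on the other strand, and since the use of strand in counting is not given in the sources used here, part of its count is uncertain.

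Of the other 13 interferon-stimulated genes 0 were called, and 5 had an unadjusted p under 0.05 with a lower level, beside 5.90% of all genes. Rsad2, which encodes viperin, an enzyme that makes a chain-terminating nucleotide, was at 20.1, 25.3, 37.3 and 28.9 CPM in WT 1 to 4 and at 14.3, 19.6, 17.8 and 14.2 CPM in N-LKO 1 to 4. WT 1 at the bottom of its group was just above N-LKO 2 at the top of the other (log2 fold change -0.76, SE 0.179, adjusted p = 0.0866). Parp14, an ADP-ribosyltransferase, was at 48.0, 50.4, 44.9 and 44.1 CPM in WT 1 to 4 and at 29.9, 41.8, 38.0 and 38.2 CPM in N-LKO 1 to 4. Its groups did not overlap either, with N-LKO 1 the lowest (log2 fold change -0.34, adjusted p = 0.178). Ifit3, a partner of Ifit1 whose counts can be split with its near copy Ifit3b, was at 9.46, 11.8, 14.8 and 11.9 CPM in WT 1 to 4 and at 6.12, 8.12, 9.49 and 5.70 CPM in N-LKO 1 to 4. N-LKO 3 reached just above WT 1, and the rest were apart (log2 fold change -0.70, adjusted p = 0.118). Isg15, the ubiquitin-like modifier, was at 1.87, 3.25, 3.36 and 1.99 CPM in WT 1 to 4 and at 1.02, 1.39, 1.99 and 1.29 CPM in N-LKO 1 to 4. WT 2 and WT 3 were above all other livers, and N-LKO 3 lay with WT 1 and WT 4 (log2 fold change -0.88, adjusted p = 0.213). Ifi35, an interferon-induced leucine zipper protein, was at 8.01, 7.75, 10.7 and 9.49 CPM in WT 1 to 4 and at 6.58, 6.60, 7.23 and 8.35 CPM in N-LKO 1 to 4, with N-LKO 4 above WT 1 and WT 2 (log2 fold change -0.32, adjusted p = 0.356).

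The remaining 8 of 15 interferon-stimulated genes had log2 fold changes between -0.25 and 0.13, and 0 of them had an unadjusted p under 0.05. Ifi27, the most abundant of these after Bst2 on the per-kilobase scale, was at 28.4, 19.6, 26.7 and 25.1 CPM in WT 1 to 4 and at 21.2, 31.5, 25.7 and 23.9 CPM in N-LKO 1 to 4. The groups covered the same range, and the log2 fold change was 0.035 with a 95% interval of -0.27 to 0.34. Ifit2, next to Ifit1 and Ifit3 in the Ifit cluster on chromosome 19, had a log2 fold change of 0.13 (95% interval -0.30 to 0.56), the highest of the interferon genes. Bst2, which tethers budding virions, had -0.049 (-0.46 to 0.37) and Ifi44 -0.11 (-0.62 to 0.39). Among the 2'-5' oligoadenylate synthetase genes, which sense double-stranded RNA, or their relatives, the log2 fold change was 0.031 for Oas1a, -0.25 for Oas2, -0.18 for Oasl1 and -0.21 for Oasl2. The interval of Oas1a, at -0.82 to 0.88, was the widest of the 15. Intervals this wide leave room for a change as large as that of Rsad2 in Oas1a and Oas2, so these genes are not shown to be equal between the groups.

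**Figure D2:**
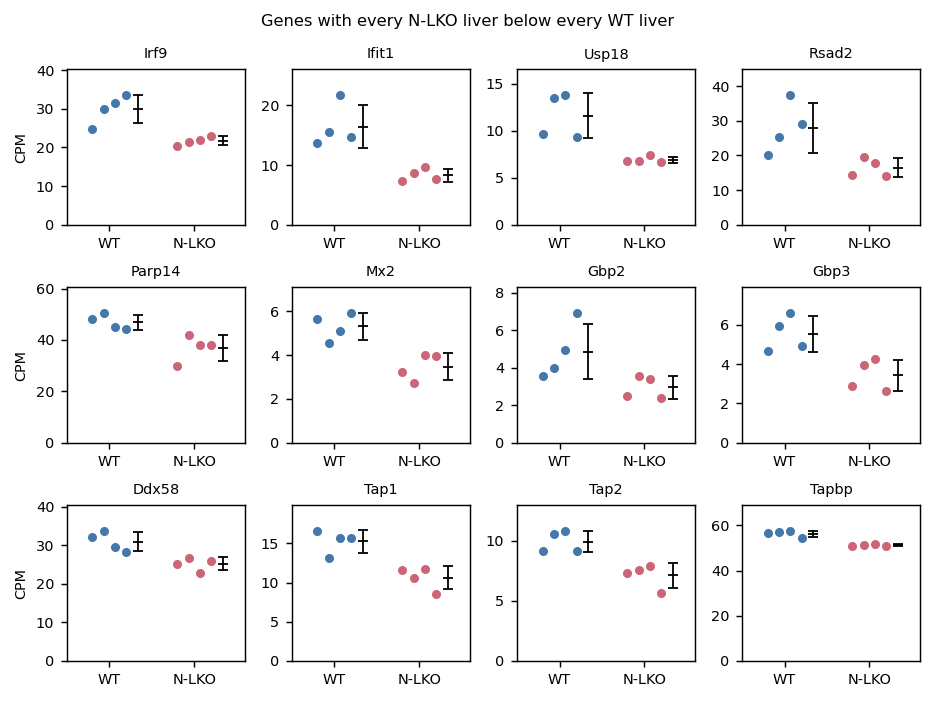
CPM in each of 4 WT and 4 N-LKO livers (points, in order of replicate number) for the 12 genes in which every N-LKO liver was below every WT liver, with the mean and SD of each group beside the points. The gap between groups is widest relative to the level for Ifit1, and for Tapbp it is narrow but the points of each group lie close together.

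All 7 interferon-induced GTPases had a log2 fold change below 0 and an unadjusted p under 0.05, beside 5.90% of all genes in that direction, and the median was -0.67. Of the 7, 0 had an adjusted p under 0.05, and in 4 the groups overlapped. Mx1, which blocks influenza viruses and carries a deletion in C57BL6 mice, was at 0.908, 1.13, 1.27 and 1.55 CPM in WT 1 to 4 and at 0.510, 0.528, 0.929 and 0.543 CPM in N-LKO 1 to 4. N-LKO 3 reached just above WT 1, and the other N-LKO livers were below every WT liver (log2 fold change -0.95, SE 0.301, adjusted p = 0.202). Mx2, annotated as a polymorphic pseudogene since its reading frame is broken in some laboratory strains, was at 5.66, 4.57, 5.07 and 5.90 CPM in WT 1 to 4 and at 3.23, 2.71, 3.98 and 3.94 CPM in N-LKO 1 to 4. Its groups did not overlap (log2 fold change -0.62, adjusted p = 0.124). Gbp2, a guanylate-binding protein, was at 3.58, 4.00, 4.95 and 6.90 CPM in WT 1 to 4 and at 2.49, 3.56, 3.38 and 2.38 CPM in N-LKO 1 to 4. N-LKO 2 lay just below WT 1, and WT 4 was the highest (log2 fold change -0.72, adjusted p = 0.213). Gbp3 was at 4.65, 5.94, 6.59 and 4.91 CPM in WT 1 to 4 and at 2.89, 3.96, 4.25 and 2.65 CPM in N-LKO 1 to 4, with N-LKO 1 and N-LKO 4 the lowest (log2 fold change -0.68, adjusted p = 0.150).

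Gbp7 was the most variable of the N-LKO group among these GTPases, at 15.5, 18.6, 19.5 and 21.2 CPM in WT 1 to 4 and at 7.99, 17.0, 12.1 and 9.91 CPM in N-LKO 1 to 4. N-LKO 2 lay among the WT livers and the other N-LKO livers were below them all (log2 fold change -0.67, adjusted p = 0.175). Igtp, also known as Irgm3, was at 14.2, 19.5, 27.3 and 27.5 CPM in WT 1 to 4 and at 13.5, 15.8, 16.1 and 13.4 CPM in N-LKO 1 to 4. WT 3 and WT 4 were far above the N-LKO livers and WT 1 was among them (log2 fold change -0.59, adjusted p = 0.214). Irgm1, the regulator of these immunity-related GTPases, was at 37.6, 44.1, 56.1 and 47.8 CPM in WT 1 to 4 and at 38.7, 34.5, 34.5 and 35.5 CPM in N-LKO 1 to 4. WT 1 was below N-LKO 1, and the other WT livers were above all N-LKO livers (log2 fold change -0.37, adjusted p = 0.179). Igtp shares 162 exon bases with Irgm2 on the same strand, and Gbp genes are near copies of each other, so the split of reads within these families is uncertain.

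Both cytoplasmic RNA sensors had small log2 fold changes below 0. Ddx58, which encodes RIG-I, was at 32.2, 33.6, 29.6 and 28.2 CPM in WT 1 to 4 and at 25.2, 26.7, 22.8 and 25.9 CPM in N-LKO 1 to 4. Its groups did not overlap, although the log2 fold change was only -0.30 (SE 0.0853, adjusted p = 0.159). Ifih1, which encodes MDA5, was at 38.5, 40.1, 38.0 and 35.1 CPM in WT 1 to 4 and at 31.1, 36.9, 33.4 and 32.4 CPM in N-LKO 1 to 4. N-LKO 2 was above WT 4 (log2 fold change -0.18, adjusted p = 0.370).

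Promoter sequences are shown for genes with lower mean levels in N-LKO livers and for genes with log2 fold changes near 0, because ISRE and GAS letters are what the interferon-activated factors read. RefSeq promoter windows of 300 bases on GRCm38.p6, from 250 before to 50 after the start, were given for 32 of the 42 genes. Those without a window here were Ifi27, Usp18, Oas2, Parp14, Mx1, Mx2, Tap2, H2-Ab1, Nlrc5 and Ciita. The letters GAAA, any 2 bases and GAAA, searched on both strands with overlapping matches allowed, stood for ISRE, and TTC, any 3 bases and GAA, which reads the same on both strands, for GAS. ISRE letters were in 15 of 32 windows (46.9%), beside 3.99% of 27025 genes with a window and 3.78% of 9863 genes tested. Of the interferon genes 14 of 22 held them, and of the antigen presentation genes 1 of 10, B2m. GAS letters were in 8 of 32, beside 9.55% of all genes with a window. The stretches below are written 5' to 3' along the strand of the gene, with ISRE and GAS letters in capitals. Each of them holds ISRE letters. H2-Aa and H2-Eb1, the class II chains with a window, hold none and are not shown. Ifit1, Ifit3, Isg15, Rsad2, Gbp7 and Igtp had lower mean levels in N-LKO livers, and Bst2, Oas1a and B2m had log2 fold changes near 0.
Ifit1 (chr19:34640760-34640838, plus strand): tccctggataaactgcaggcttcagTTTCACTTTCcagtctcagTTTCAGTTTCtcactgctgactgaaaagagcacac
Ifit3 (chr19:34583348-34583441, plus strand): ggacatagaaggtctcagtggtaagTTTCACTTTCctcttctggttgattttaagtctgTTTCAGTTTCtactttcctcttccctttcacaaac
Isg15 (chr4:156200850-156200921, minus strand): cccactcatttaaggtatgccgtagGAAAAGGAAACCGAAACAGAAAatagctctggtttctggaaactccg
Rsad2 (chr12:26456538-26456597, minus strand): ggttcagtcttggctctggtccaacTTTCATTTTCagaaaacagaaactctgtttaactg
Gbp7 (chr3:142530205-142530317, plus strand): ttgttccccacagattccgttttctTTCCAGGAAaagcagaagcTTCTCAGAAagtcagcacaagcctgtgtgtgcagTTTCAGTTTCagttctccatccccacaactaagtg
Igtp (chr11:58199486-58199555, plus strand): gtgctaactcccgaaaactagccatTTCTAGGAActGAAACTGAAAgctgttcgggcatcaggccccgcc
Bst2 (chr8:71537562-71537633, minus strand): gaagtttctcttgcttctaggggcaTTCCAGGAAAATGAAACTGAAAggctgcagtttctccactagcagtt
Oas1a (chr5:120907526-120907648, minus strand): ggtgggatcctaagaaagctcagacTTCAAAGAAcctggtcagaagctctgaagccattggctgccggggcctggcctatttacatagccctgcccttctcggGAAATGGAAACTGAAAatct
B2m (chr2:122147523-122147582, plus strand): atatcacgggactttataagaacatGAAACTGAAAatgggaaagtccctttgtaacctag

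In these stretches Ifit1 held ISRE letters at 104 and 85 bases before the start, and Ifit3 at 2 positions farther upstream. Isg15 held overlapping matches that begin 78, 72 and 66 bases before the start, in Gbp7 and Igtp GAS letters lay beside ISRE letters, and so they did in Bst2. Of the 15 genes with ISRE letters, 13 had a log2 fold change below 0 with a median of -0.59, and 12 had an unadjusted p under 0.05 with a lower level. Over all genes the shares were 50.7% and 5.90%. Of the 17 without them, 14 were below 0 with a median of -0.21, and 6 had an unadjusted p under 0.05. Ifit1 was the gene called in the first group, and 0 were called in the second. Usp18, the other gene called, has no window here and is in neither group. Of the 15 genes with the letters 14 are interferon genes, so the split in part follows the lists. Bst2, Oas1a and B2m carry the letters with log2 fold changes near 0. A match describes letters in a window and not binding, the split was made with the values known, and no test was run on it. Over all genes tested, 373 held ISRE letters, and their fold changes were not compared as a group. The counts above therefore describe the chosen members and not genes with ISRE letters in general.

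Of the 3 class I chains, 0 had an unadjusted p under 0.05, and in each the groups overlapped. H2-K1, a classical heavy chain, was at 612, 636, 662 and 615 CPM in WT 1 to 4 and at 630.2, 569.9, 602 and 610.3 CPM in N-LKO 1 to 4. The groups overlapped, and the log2 fold change was -0.065 with a 95% interval of -0.23 to 0.10. B2m, the light chain, was at 1222, 1167, 1296 and 1227 CPM in WT 1 to 4 and at 1361, 1223, 1291 and 1258 CPM in N-LKO 1 to 4 (log2 fold change 0.064, 95% interval -0.12 to 0.24). H2-D1 had -0.024 (-0.17 to 0.12). Heavy chain genes are near copies that share reads, so 15 of them were also summed, at 1923, 1838, 2019 and 1875 CPM in WT livers and 1807, 1695, 1802 and 1819 CPM in N-LKO livers. Here every N-LKO liver was below every WT liver by a narrow margin, as in 3.32% of all single genes, and the log2 ratio of the means was -0.10. The most abundant chain in this sum was H2-Q10, named after its values were seen. It was at 785 ± 63.3 CPM in WT and 701 ± 45.2 CPM in N-LKO livers (SD, n = 4). Its groups overlapped (log2 fold change -0.16, adjusted p = 0.494, edgeR).

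Tap1, a subunit of the transporter that carries peptides into the ER, was at 16.6, 13.1, 15.7 and 15.7 CPM in WT 1 to 4 and at 11.6, 10.6, 11.7 and 8.56 CPM in N-LKO 1 to 4. Every N-LKO liver was below every WT liver, with N-LKO 4 the lowest (log2 fold change -0.52, SE 0.120, adjusted p = 0.0764). Tap2, the other subunit, was at 9.14, 10.5, 10.8 and 9.16 CPM in WT 1 to 4 and at 7.31, 7.52, 7.90 and 5.64 CPM in N-LKO 1 to 4. N-LKO 4 was again the lowest and the groups did not overlap (log2 fold change -0.48, SE 0.127, adjusted p = 0.129). Tapbp, which encodes tapasin, the bridge between transporter and class I chains, was at 56.5, 56.9, 57.4 and 54.4 CPM in WT 1 to 4 and at 51.0, 51.5, 52.0 and 50.9 CPM in N-LKO 1 to 4. The groups did not overlap, yet the N-LKO mean was 91.1% of the WT mean (log2 fold change -0.13, adjusted p = 0.388). Thus in 3 of 3 loading genes the groups did not overlap, beside 3.32% of all genes lower without overlap, and 0 of 3 had an adjusted p under 0.05.

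Immunoproteasome subunits, which replace the constitutive catalytic subunits and cut peptides for class I, had log2 fold changes below 0 in 3 of 3. Psmb8 was at 9.51, 7.50, 9.003 and 9.93 CPM in WT 1 to 4 and at 7.65, 6.67, 6.70 and 6.31 CPM in N-LKO 1 to 4. N-LKO 1 was above WT 2, and the other N-LKO livers were below all WT livers (log2 fold change -0.39, adjusted p = 0.187). Psmb9 was at 5.50, 4.88, 6.47 and 3.53 CPM in WT 1 to 4 and at 4.14, 5.61, 4.05 and 3.53 CPM in N-LKO 1 to 4, with WT 4 and N-LKO 4 both lowest (log2 fold change -0.23, 95% interval -0.69 to 0.22). Psmb10 had a log2 fold change of -0.25 (95% interval -0.69 to 0.20). Tap1 and Psmb9 lie head to head on chromosome 17 and share 212 exon bases on opposite strands. In all, 13 of the 42 genes share exon bases with a gene on the other strand, among them Irf1, Irf3, Ifi35, Gbp2, Tap2, Tapbp and Psmb8, so part of their counts is uncertain. Nlrc5, the transactivator of class I genes, was at 18.8, 16.2, 15.5 and 16.4 CPM in WT 1 to 4 and at 15.1, 14.7, 16.1 and 15.5 CPM in N-LKO 1 to 4. The groups overlapped (log2 fold change -0.12, 95% interval -0.31 to 0.070).

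The MHC class II chains went the other way from the interferon genes without passing the test. H2-Aa was at 6.14, 4.00, 7.54 and 14.96 CPM in WT 1 to 4 and at 6.97, 11.1, 15.3 and 11.8 CPM in N-LKO 1 to 4. H2-Ab1 was at 4.27, 3.13, 3.80 and 9.27 CPM in WT 1 to 4 and at 6.01, 7.99, 10.2 and 8.35 CPM in N-LKO 1 to 4, and H2-Eb1 at 4.33, 3.00, 3.93 and 9.60 CPM in WT 1 to 4 and at 6.80, 8.91, 11.1 and 5.84 CPM in N-LKO 1 to 4. In each of the 3 genes WT 4 was far above the other WT livers, and N-LKO 3 was the highest of all 8 livers. The groups overlapped through WT 4 alone in H2-Ab1 and H2-Eb1, and through WT 3 and WT 4 in H2-Aa. The log2 fold change was 0.46 for H2-Aa, 0.66 for H2-Ab1 and 0.64 for H2-Eb1, with adjusted p = 0.647, 0.405 and 0.472. Without WT 4 these became 0.93, 1.11 and 1.12, with adjusted p = 0.243, 0.0507 and 0.0959 from edgeR. Without WT 2 they fell to 0.23, 0.48 and 0.45. Over the 8 fits that left out 1 mouse, adjusted p reached 0.858, 0.657 and 0.732 (edgeR), so the size of the difference depends on single mice. Ciita was at 0.506 ± 0.173 CPM in WT livers and 0.796 ± 0.379 CPM in N-LKO livers (SD, n = 4) and was not tested. Cd74, the invariant chain of class II, was at 20.2, 12.9, 15.8 and 39.9 CPM in WT 1 to 4 and at 18.0, 28.2, 32.0 and 24.4 CPM in N-LKO 1 to 4. WT 4 and then N-LKO 3 were the highest (log2 fold change 0.20, adjusted p = 0.845).

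Class II chains are made by dendritic cells, macrophages and B cells, and markers of these were measured beside them. Of 12 Kupffer cell and macrophage markers 12 were tested and 0 called, and their summed level was 143.6 to 256.2 CPM in WT livers and 157.0 to 248.9 CPM in N-LKO livers. WT 1, WT 4 and N-LKO 3 were the high livers. Of 10 dendritic cell markers 4 were tested and 0 called, with a sum of 44.3 to 50.5 CPM in WT livers and 49.05 to 61.8 CPM in N-LKO livers, N-LKO 3 being the highest. Most of this sum was the single gene Cst3, with a mean of 38.6 of 48.3 CPM in WT and 43.8 of 54.5 CPM in N-LKO livers. The sum therefore says little about the other dendritic cell markers. The 8 B cell markers were all too low to test and summed to 2.25 to 5.63 CPM in WT livers and 1.56 to 3.52 CPM in N-LKO livers. No marker of these lists was at 0 in every mouse. WT 4 and N-LKO 3, the livers high in class II chains, were thus high in Kupffer cell markers too, whereas WT 1 was high in these markers and not in class II chains, and the part of the markers in the class II levels was not tested.

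**Figure D3:**
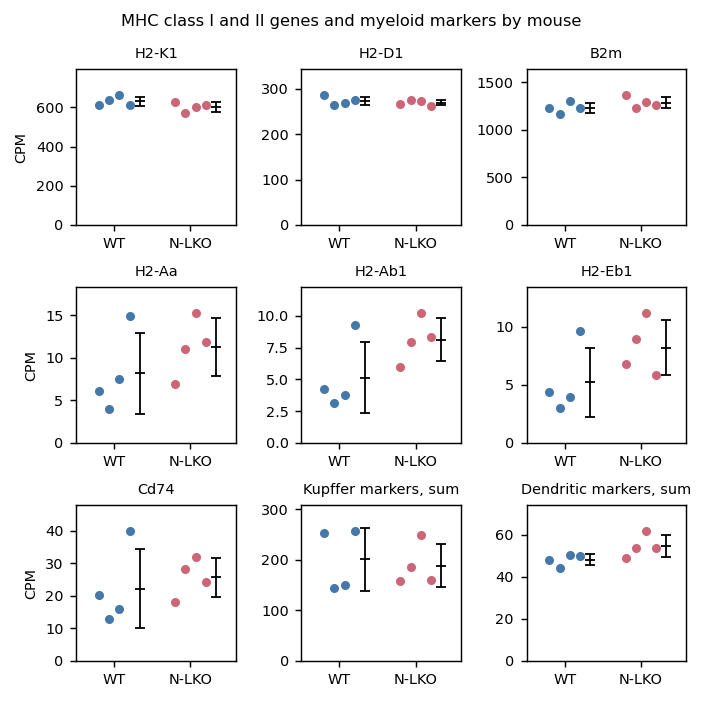
CPM in each of 4 WT and 4 N-LKO livers (points, in order of replicate number, with mean and SD) for MHC class I chains (top), class II chains and Cd74, and the summed Kupffer cell and dendritic cell markers. Most of the dendritic cell sum is Cst3. Class I chains are level across the 8 livers, while WT 4 and N-LKO 3 are the high livers of their groups for the class II chains and for Kupffer cell markers.

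Other cell types were compared with the same fit. Markers of stellate cells and fibroblasts had 2 of 9 tested called higher, Col1a1 and Lum, and 4 of 9 without overlap, beside 0.823% and 4.20% of all genes. Their sum was 193.7 to 280.0 CPM in WT livers and 276.6 to 388.6 CPM in N-LKO livers. Cholangiocyte markers had 2 of 5 tested called higher, Epcam and Spp1, and 3 of 5 higher without overlap, beside the same shares of all genes. Their sum was 35.8 to 61.8 CPM in WT livers and 72.8 to 154 CPM in N-LKO livers. Spp1 was a large part of it, with a mean of 23.9 of 48.6 CPM in WT and 68.1 of 105 CPM in N-LKO livers. The study also lists Spp1 and Epcam for a cancer-enriched hepatocyte cluster of N-LKO mice on another diet. Of 8 endothelial markers 0 were called, with a sum of 215.8 to 253.6 CPM in WT livers and 201.0 to 238.8 CPM in N-LKO livers. T and NK cell markers, of which 2 of 14 were tested, summed to 3.93 to 5.74 CPM in WT livers and 4.07 to 5.44 CPM in N-LKO livers. Neutrophil markers, of which 6 were in the table and 2 tested, summed to 1.59 to 5.56 CPM in WT livers and 3.01 to 3.96 CPM in N-LKO livers. Of the 9 stellate cell and fibroblast markers tested, 8 had a log2 fold change above 0, and the median was 0.84. An unadjusted p under 0.05 with a higher level was found for 7 of 9, beside 6.87% of all genes. Their sums overlapped, but their mean log2 CPM did not, at 3.43 ± 0.24 in WT and 4.14 ± 0.34 in N-LKO livers (SD, n = 4). Lrat and Reln, the stellate cell markers nearest to 0 and named after their values were seen, had log2 fold changes of -0.15 and 0.087 (adjusted p = 0.816 and 0.892). The part of the 4 called markers and their lists in the levels of the interferon genes was not tested.

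Averaged over genes, the interferon genes separated the 8 livers. The mean log2 CPM over the 28 interferon genes (factors, stimulated genes, GTPases and sensors) was 3.22, 3.28, 3.53 and 3.42 in WT 1 to 4 and 2.80, 2.98, 3.14 and 2.89 in N-LKO 1 to 4. The groups did not overlap, and the difference of the means was -0.41, with an SD of 0.14 in each group. Of the 28 genes, 25 had a log2 fold change below 0, beside 50.7% of all genes, and the median was -0.36. An unadjusted p under 0.05 with a lower level was found for 19, beside 5.90% of all genes. Lower without overlap were 9, beside 3.32%. WT 3 was the highest liver for 12 of the 28 genes and WT 4 for 8, while N-LKO 1 was the lowest for 12 and N-LKO 4 for 7. The median difference of the 28 genes from the WT mean was -0.55, -0.41, -0.32 and -0.34 on the log2 scale in N-LKO 1 to 4, and -0.23, -0.055, 0.18 and 0.084 in WT 1 to 4. WT 1 was thus the WT liver nearest to the N-LKO group. Over the 13 antigen presentation genes tested the mean log2 CPM was 4.60 ± 0.14 in WT and 4.60 ± 0.098 in N-LKO livers (SD, n = 4), which joins loading genes that were lower with class II chains that were higher. These means describe a list chosen with results known, and no test was run on them.

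**Figure D4:**
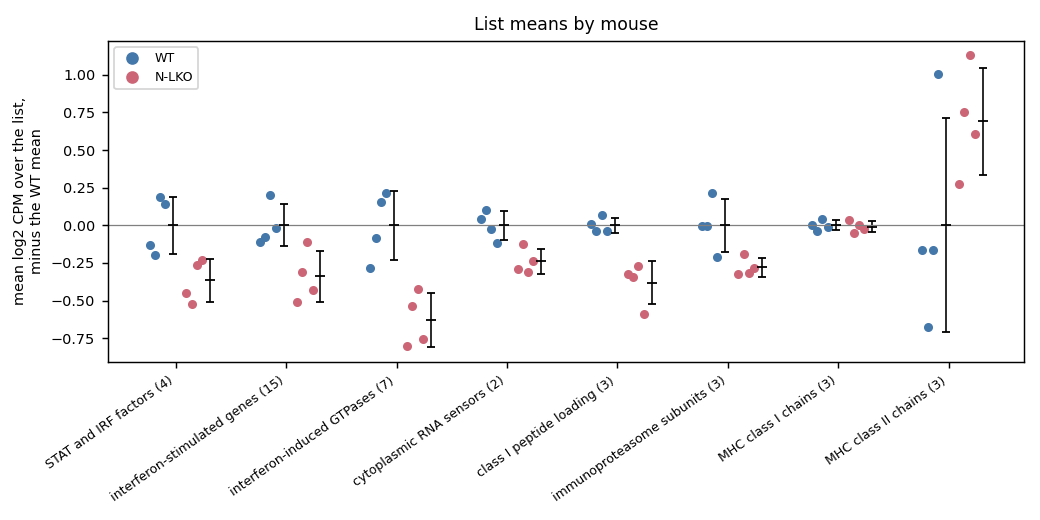
Mean log2 CPM over the genes of each role, minus the mean of the 4 WT livers, in each WT and N-LKO liver (points, with mean and SD, number of genes in brackets). Factors, stimulated genes, GTPases, sensors and loading genes show 4 N-LKO livers below 4 WT livers, class I chains lie at 0, and the class II chains lie above 0 with WT 4 among the N-LKO livers.

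The rest of the pathway was taken from a list of 164 further genes, of which 148 were in the table and 129 tested. By edgeR 0 were called, 37 had an unadjusted p under 0.05 with a lower level and 4 with a higher level, beside 5.90% and 6.87% of all genes, and 22 were lower without overlap, beside 3.32%. DESeq2 called 11, beside 371 of all genes where edgeR called 148, and limma-voom called 1. The log2 fold change was below 0 in 94 of 129, beside 50.7% of all genes, and the median was -0.14. Zbp1, a sensor of Z-form nucleic acids, was at 5.29, 4.75, 5.20 and 4.36 CPM in WT 1 to 4 and at 2.04, 2.11, 3.45 and 2.85 CPM in N-LKO 1 to 4. The groups did not overlap, with a log2 fold change of -0.91 (SE 0.187, adjusted p = 0.0503, edgeR).

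Further interferon-stimulated genes had a median of -0.19, with 43 of 51 below 0, beside 50.7% of all genes. Of the 51, 21 were lower at an unadjusted p under 0.05 and 15 lower without overlap, beside 5.90% and 3.32% of all genes. Among those with a mean of at least 1 CPM, the largest by size were Cxcl10, a chemokine for T cells, at -0.89 (adjusted p = 0.326) and Ifit3b at -0.87 (adjusted p = 0.208). Against this direction, Ly6e and Ifi27l2b, named here after their values were seen, were higher in each N-LKO liver, with log2 fold changes of 0.50 and 0.84 (adjusted p = 0.0763 and 0.157). Further GTPases had 15 of 15 below 0 with a median of -0.45. Of these, 7 were lower at an unadjusted p under 0.05 and 3 lower without overlap, against the same shares of all genes. Gbp10 and Gbp11 were at -0.97 and -0.87 (adjusted p = 0.232 and 0.348).

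Ligands, receptors, kinases and brakes, of which 12 were tested, had a median of -0.047. Socs3, an inhibitor of JAK-STAT signalling, was at -0.84 (adjusted p = 0.540), a value set by WT 1 at 11.7 CPM against at most 4.31 CPM in any other liver, and it was 0.019 without that mouse. Ptpn2, a phosphatase that acts on JAK and STAT proteins, was at -0.39 (adjusted p = 0.232). Ifnb1, Ifng and the other interferon ligands on the list but Ifnk were not analysed here, and Ifnk and Ifnlr1 did not pass the filter. Other STAT and IRF factors had a median of -0.20 over 9 genes, with Irf7, the amplifier of type I interferon production, at -0.39 (adjusted p = 0.405). Sensing genes had a median of 0.027 over 13, and Sting1, the adaptor for cytosolic DNA, was at 0.61 (adjusted p = 0.425). Other class I and loading genes had a median of -0.082 over 20, with H2-K2 at -0.69 and H2-T24 at -0.47 (adjusted p = 0.337 and 0.434). Other class II genes had a median of 0.20 over 9, with H2-DMb1 at 0.44 and H2-DMa at 0.37 (adjusted p = 0.689 and 0.736), the former set by N-LKO 3.

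**Figure D5:**
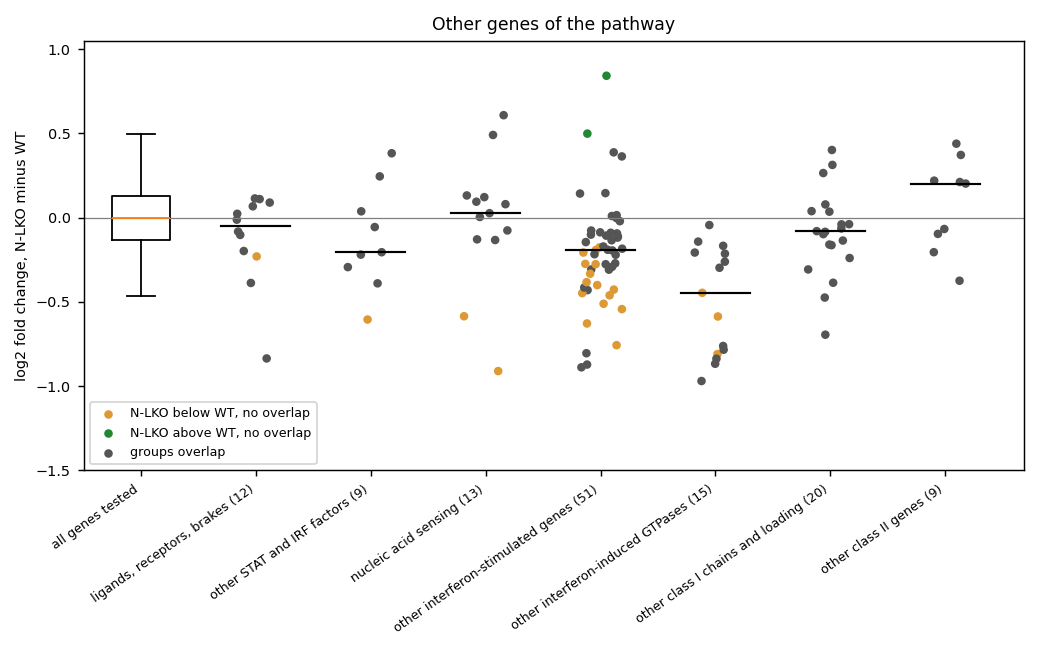
Log2 fold change (N-LKO minus WT, y axis) of the 129 further pathway genes tested, by list, with the median of each list as a line and the number of genes in brackets. The box shows all 14214 genes tested (median, quartiles, 5th to 95th percentile), and further interferon-stimulated genes and GTPases have medians below it at -0.19 and -0.45.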

How the data were processed

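The authors trimmed and aligned the reads and deposited 1 table of expected counts, that is an estimated count for each gene in each of 4 WT and 4 N-LKO livers, not scaled to depth. The study's methods name in-house trimming, TopHat2 and cuffdiff, while the submitters' processing notes name STAR, Partek and mm9. The gene positions of the table are those of GRCm38, and for 41 of the 42 genes they are those of GENCODE M21. The use of strand in counting is not given in the sources used here. The study names a kit for small RNA libraries, and how it affects the counts was not tested. For 41% of genes at least 1 mouse had an estimate that was not whole (tolerance 0.01).

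Groups follow the genotype in the titles. After rounding and filterByExpr (minimum count 10, minimum total 15), the quasi-likelihood test of edgeR 4.0.16 (R 4.3.3) compared genotypes with no other term, using TMM scaling (glmQLFit, then glmQLFTest) and Benjamini-Hochberg adjustment over 14214 genes. Standard errors were taken as fold change (log2) over the root of F, log2 CPM used a prior count of 2, and intervals are at 95%. Overlap of groups was read from CPM. The members and lists were chosen with earlier results of these data known, so no test was run over a list. Genes were named by rule: members called, without overlap, or with an unadjusted p under 0.05, the 2 most abundant and the most changed of each role, and the 2 most changed of each further list (mean of at least 1 CPM). For 1 further pathway gene that this rule names, values are not reported here.

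On simulated counts with 200 changed genes edgeR recovered 68% of 2-fold and 99% of 4-fold changes with 16 false calls. Smaller changes, such as those of the members here, were not simulated, so these rates do not cover them. Chi-square per degree of freedom between libraries of the same group was 10.7 to 43.6, so none was a repeat of another in its group. Pairs of a WT and an N-LKO library were not checked in this way. Depth limits genes of few counts. Alternatives were RLE scaling, library totals, other count filters, replicate blocks, DESeq2 1.42.0, limma-voom (limma 3.58.1), a prior count of 0.5 and leaving out each mouse. Figures used matplotlib 3.10.9.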

Additional observations from a re-analysis of the deposited data

Results flagged for a closer look

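Of 90 groups of 4 livers checked for a liver far from the other 3, 4 stood out, and 4.5 would by chance at 1 in 20. Values are log2 CPM. N-LKO 2 was low in Irf1 at 2.62, with the other N-LKO livers between 3.28 and 3.39. N-LKO 3 was high in Usp18 at 2.92, with the others between 2.76 and 2.78, and in Mx1 at 0.072, with the others between -0.66 and -0.59. WT 1 was low in Nus1 at 6.36, with the other WT livers between 6.49 and 6.50.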

How the results depend on the processing

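With all 8 mice, every alternative kept the sign of each named member, and 34 of 41 members stayed below 0, except that the filters changed the number tested (34 of 42 with no filter, 33 of 39 with at least 10 counts in every mouse). Called among all genes were 148, which became 98 with at least 10 counts in every mouse, 371 by DESeq2 and 71 to 173 with 1 mouse left out (71 without WT 4). Called members were 2, which became 1 with at least 10 counts (Ifit1), 6 by DESeq2, 1 by limma-voom (Ifit1) and 1 to 5 with 1 mouse left out. Further pathway genes called were 0, which became 2 with RLE scaling and 2 with no filter (Zbp1 among them in each), 11 by DESeq2, 1 by limma-voom (Zbp1) and 0 to 2 with 1 mouse left out. The causes were not tested.

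The labels do not say whether the replicate numbers pair the mice, and correlations over so few mice cannot decide it. Deviations of same-numbered livers correlated at 0.062, -0.085, 0.040 and 0.043 for title numbers and at -0.0092, 0.17, 0.065 and 0.077 for library numbers. For library numbers 2 and 4 the WT liver correlated best with the N-LKO liver of its own number. For the other library numbers and for every title number it did not. A replicate block by title number called 2 members (Ifit1 and Ifit3) and 2 further pathway genes (Ly6e among them). A replicate block by library number called 1 member, Tap1, with Ifit1 at an adjusted p of 0.0552 (edgeR).

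Signs turned only with 1 mouse left out, where log2 fold changes ranged from -0.077 to 0.12 for Ifi27, -0.24 to 0.028 for Ifi44, -0.26 to 0.30 for Oas1a, -0.31 to 0.082 for Oasl1, -0.16 to 0.19 for Bst2, -1.10 to 0.019 for Socs3 and -0.071 to 0.61 for H2-DMb1. The mean difference over the interferon genes stayed between -0.47 and -0.35, and was -0.44 with library totals alone, which moved the median of all genes to -0.037. Over the antigen presentation genes it ranged from -0.063 to 0.052. At 14688404 to 18585412 counts per liver, the members with the fewest counts were Ciita, Mx1, Oas1a and Oas2.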
